A study of Mus musculus with 8 samples.

Results

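The claudins are the proteins that form the strands of tight junctions, the belts that join neighbouring cells near their apical end. The genes described here are the 10 claudins *Cldn1*, *Cldn2*, *Cldn3*, *Cldn4*, *Cldn5*, *Cldn7*, *Cldn8*, *Cldn10*, *Cldn11* and *Cldn15*, taken as every row of the signal table that carries 1 of these symbols. They made up 10 of the 18120 gene symbols on the array and 16 of its 25697 probes. Of these genes 7 were read by 1 probe and 3 by several.

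RNA came from glomerular isolates of 4 Cd151+/+ and 4 Cd151-/- male mice of the FVB/N strain, all 3 weeks of age, with 1 mouse per array and mice numbered 1 to 4 within each genotype. The Cd151-/- mice carry a germline deletion of *Cd151*, a tetraspanin that binds laminin-receptor integrins, so that every cell of the animal is affected and not podocytes alone. Glomeruli had been isolated with magnetic beads perfused through the heart, and the isolates are therefore mixtures of podocytes, endothelium, mesangium and whatever tubule remained attached. According to the study, each sample was washed on a magnet until it reached a high minimum purity of glomeruli. The arrays were Illumina MouseRef-8 v1.1 BeadChips, on which the signal of a probe is the mean brightness of its beads.

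A claudin crosses the membrane several times and exposes a pair of loops that meet those of a claudin on the next cell. Some claudins seal the space between the cells, whereas others line it with pores that let cations, anions or water pass, and each nephron segment is known for its own combination. Podocytes, which are joined by slit diaphragms in place of classical tight junctions, still express claudins, as do the endothelium and the parietal cells of Bowman's capsule.

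Levels are given as normalised signal on the log2 scale, after background correction and quantile normalisation, and differences are Cd151-/- minus Cd151+/+. A difference was taken as passing the test at a Benjamini-Hochberg adjusted limma p below 0.05, adjusted over the 14967 probes that at least 1 array detected. The 8 arrays fell into 2 sets by background, which the labels do not give. The higher-background set held Cd151+/+ mice 3 and 4 and Cd151-/- mice 1 and 2, so that each set held 2 mice of each genotype and differences within a set could be computed. The inferred background lay between 59.0 and 135 signal units over the 8 arrays, and between 11291 and 12359 probes were detected per array. All 3 *Cd151* probes were detected on the 4 Cd151+/+ arrays and on 0 of the 4 Cd151-/- arrays.

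Of the 10 claudins, 9 were detected on at least 1 array and 8 on all 8 arrays. At 1 probe per gene, 6 of the 9 were higher and 3 lower in Cd151-/- glomeruli, where 5580 of the 11227 genes tested were higher. The median difference was 0.37, against -0.00193 over all genes tested. That median is the value of *Cldn3*, a gene near the limit of detection. No claudin passed the test: 0 of the 13 detected member probes were past the adjusted p, against 5 of all probes (0.0334%), the 3 *Cd151* probes among them. The lowest adjusted p among the claudins was 0.918 by limma. SAM at an FDR below 0.2 called 91 probes and 0 claudins. At an unadjusted p below 0.05, 1 of the 13 probes was lower and 0 were higher, against 2.61% of all probes lower, 1.69% higher and 4.3% in either direction. The 1 probe was the second brightest of *Cldn10*. The values of the 2 genotypes did not overlap for 1 of the 13 probes, that of *Cldn5*, where Cd151-/- was lower, and the same held for 1.46% of all tested probes (0.855% did not overlap with Cd151-/- higher, 2.31% in either direction). With the array set as a block, 1 claudin probe was higher and 2 were lower at an unadjusted p below 0.05, against 5.21% and 6.08% of all probes, and 0 claudins passed the adjusted test, against 0.0535% of all probes.

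**Figure D1:**
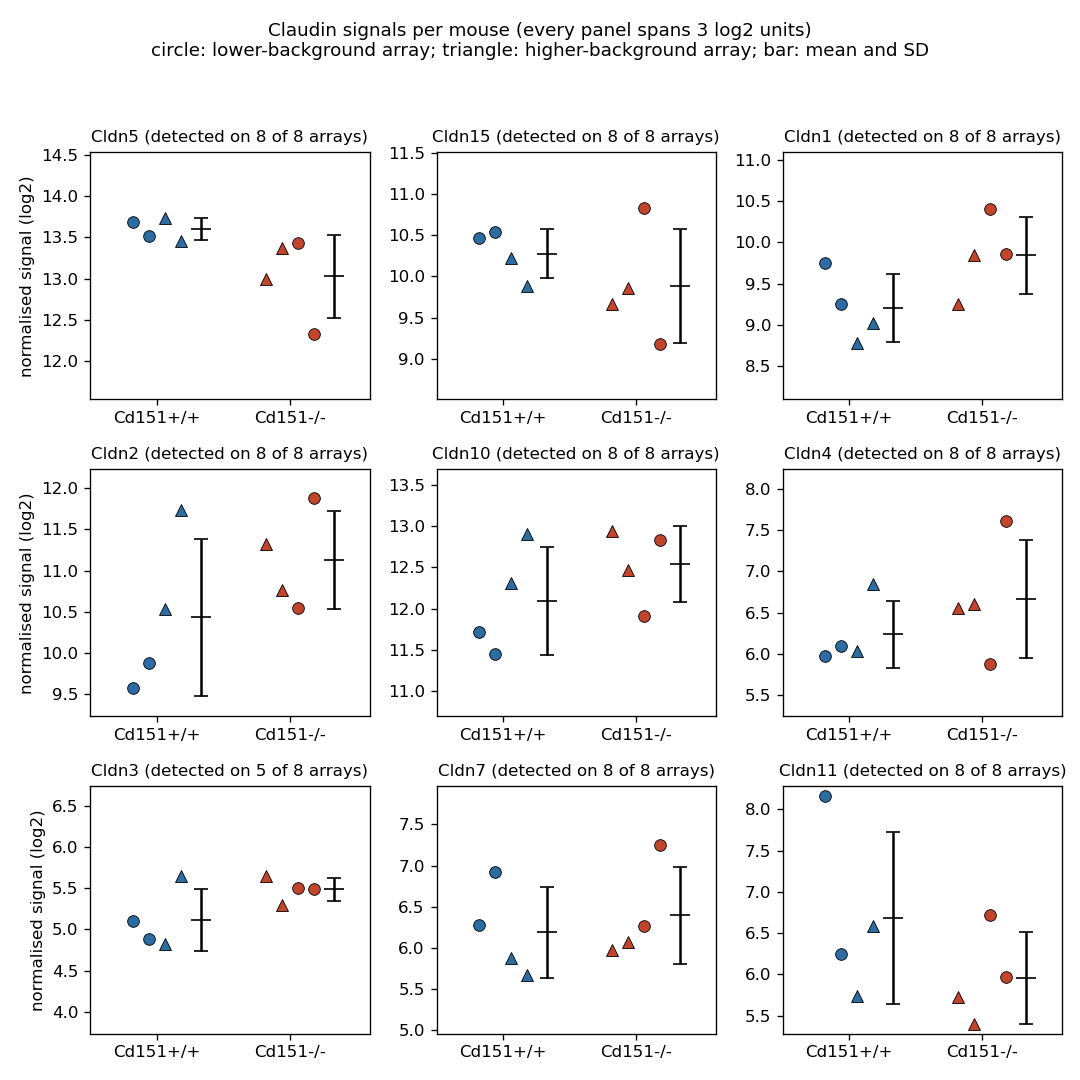
Normalised log2 signal of the 9 detected claudins, 1 probe per gene, in each of the 4 Cd151+/+ (blue) and 4 Cd151-/- (red) mice, with circles for lower-background and triangles for higher-background arrays and the bar giving mean and SD. The genotypes are apart only for *Cldn5*, whose lowest Cd151+/+ mouse is at 13.46 and whose highest Cd151-/- mouse is at 13.43.

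The first members examined were *Cldn5* and *Cldn15*. *Cldn5* encodes the sealing claudin of endothelium, known from the blood-brain barrier, and is also made by podocytes. Its signal was 13.69, 13.51, 13.73 and 13.46 in Cd151+/+ mice 1 to 4 and 12.99, 13.37, 13.43 and 12.33 in Cd151-/- mice 1 to 4. Every Cd151-/- mouse was thus below every Cd151+/+ mouse, though the closest values were 13.43 and 13.46, and Cd151-/- mouse 4 was well below the rest. The means were 13.60 ± 0.13 (SD, n = 4) and 13.03 ± 0.50 (SD, n = 4), a difference of -0.57 (SE 0.26, 1.48 times higher in Cd151+/+). By limma the unadjusted p was 0.0543 and the adjusted p 0.918, and the exact two-sided permutation p was 0.0286, the smallest that 4 mice against 4 can give. The difference was -0.72 within the lower-background set and -0.42 within the higher-background set. Without Cd151-/- mouse 4 it was -0.33. In bulk RNA, fewer cells of a type and less RNA per cell cannot be told apart.

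*Cldn15* encodes a cation pore best known from the small intestine. Its brightest probe read 10.46, 10.54, 10.22 and 9.88 in Cd151+/+ mice and 9.66, 9.86, 10.83 and 9.18 in Cd151-/- mice. Of the Cd151-/- mice, 3 were below every Cd151+/+ mouse, whereas Cd151-/- mouse 3 was the highest of all 8, and the difference of -0.39 (SE 0.33) did not pass the test (limma, unadjusted p 0.265, adjusted p 0.918). It was -0.71 without Cd151-/- mouse 3 and -0.15 without Cd151-/- mouse 4. A second *Cldn15* probe was detected on all 8 arrays and gave -0.11 (SE 0.30), and the other probe of the gene was not detected on any array.

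*Cldn5* and *Cldn15* were set beside lists of cell type markers, mouse by mouse, by the root mean square (RMS) difference between their deviations from their own 8-mouse means. A small RMS difference, relative to the gene's own RMS deviation, means that a gene was high and low in the same mice as the list. For *Cldn5*, with an RMS deviation of its own of 0.43, the closest list was that of podocytes at 0.19. Glomerular endothelium followed at 0.24, and mesangium and smooth muscle at 0.29. For the brightest *Cldn15* probe, at 0.50, endothelium at 0.26 and mesangium and smooth muscle at 0.27 were about equally close. The other detected *Cldn15* probe, at 0.39, was closest to podocytes at 0.27, with mesangium and smooth muscle at 0.34 and endothelium at 0.35. Neither gene is in these lists. The 7 tested podocyte markers were all lower in Cd151-/- isolates, with a median difference of -0.31, and 1 of them, *Plce1*, had an unadjusted p below 0.05. The podocyte list level was 12.64 to 12.70 in Cd151+/+ and 11.92 to 12.67 in Cd151-/- mice. Of the 12 endothelial markers 10 were lower and 2 higher, with a median of -0.32, and their level was 10.82 to 11.24 and 10.35 to 11.16. The podocyte marker *Podxl* was detected on all 8 arrays, as was the endothelial marker *Pecam1*. The part of these markers in the *Cldn5* difference was not tested.

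The claudins of the proximal tubule were examined next, since tubular RNA was present in the isolates. *Cldn2* encodes the pore for cations and water of the proximal tubule. It read 9.58, 9.87, 10.54 and 11.73 in Cd151+/+ mice and 11.32, 10.77, 10.54 and 11.88 in Cd151-/- mice. The Cd151+/+ mice spread over more than 2 log2 units, Cd151-/- mouse 3 was level with Cd151+/+ mouse 3, and Cd151-/- mouse 4 was above every Cd151+/+ mouse. The means were 10.43 ± 0.96 (SD, n = 4) and 11.13 ± 0.60 (SD, n = 4), a difference of 0.70 with a 95% interval of -0.31 to 1.70 (limma, unadjusted p 0.154, adjusted p 0.918). Within the lower-background set the difference was 1.49, and within the higher-background set it was -0.09. Leaving out Cd151+/+ mouse 1 or Cd151-/- mouse 4 gave 0.41 and 0.44, and leaving out Cd151+/+ mouse 4 gave 1.14.

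*Cldn10* is known for isoforms made from alternative first exons, of which claudin-10a forms anion pores in the proximal tubule and claudin-10b cation pores in the thick ascending limb. It was read by 4 probes, all detected on all 8 arrays. The array table does not say which isoform each probe reads, and probe sequences were not used here. The brightest probe, ILMN_2515816, read 11.71, 11.45, 12.31 and 12.91 in Cd151+/+ mice and 12.94, 12.47, 11.91 and 12.83 in Cd151-/- mice. Its difference was 0.44 (SE 0.35, limma, unadjusted p 0.227, adjusted p 0.918), and the groups overlapped. It was 0.23 without Cd151+/+ mouse 2 and 0.72 without Cd151+/+ mouse 4. ILMN_1214954 gave 0.46 (SE 0.38), with deviations that differed from those of ILMN_2515816 by an RMS of 0.098, and a range of 0.23 to 0.76 with each mouse left out. ILMN_2610656 gave 0.79 (SE 0.58), with values of 7.27 to 9.58 in Cd151+/+ mice and of 8.16 to 10.72 in Cd151-/- mice. Its difference was 0.34 or 0.36 when Cd151+/+ mouse 1 or Cd151-/- mouse 4 was left out, and was 1.22 when Cd151-/- mouse 2 was.

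The other probe of the gene, ILMN_2723576, went the other way. It read 11.14, 9.997, 9.97 and 10.66 in Cd151+/+ mice and 9.72, 9.37, 10.16 and 8.83 in Cd151-/- mice. Of the Cd151-/- mice, 3 were below every Cd151+/+ mouse and mouse 3 was within their range. The means were 10.44 ± 0.56 (SD, n = 4) and 9.52 ± 0.56 (SD, n = 4), a difference of -0.92 (SE 0.35, 1.89 times higher in Cd151+/+). The unadjusted limma p was 0.0223, the adjusted p 0.918 and the exact two-sided permutation p 0.0857. The difference was -1.07 within the lower-background and -0.77 within the higher-background set. Leaving out each mouse in turn gave -1.13 to -0.68.

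Subtracting ILMN_2723576 from ILMN_2515816 in each mouse gave 0.57, 1.45, 2.34 and 2.25 in Cd151+/+ mice and 3.21, 3.10, 1.75 and 4.00 in Cd151-/- mice. This difference between the probes was above every Cd151+/+ value in 3 of the 4 Cd151-/- mice. Its mean was 1.65 ± 0.82 (SD, n = 4) and 3.02 ± 0.93 (SD, n = 4), a shift of 1.36. The pair was chosen after its values were seen and the shift is given as a description with no test, and only its change between mice carries meaning, since the levels of 2 probes cannot be set against each other.

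The *Cldn10* probes also varied with different marker lists over the 8 mice. ILMN_2515816, ILMN_1214954 and ILMN_2610656 were closest to the proximal tubule list, at RMS differences of 0.39, 0.36 and 0.48 against RMS deviations of their own of 0.54, 0.59 and 1.00. For ILMN_2515816 the parietal epithelium list at 0.43 and the collecting duct list at 0.45 were not much further away. *Cldn2* was also closest to the proximal tubule list, at 0.36 against 0.77. It differed from ILMN_1214954 by 0.29 and from ILMN_2515816 by 0.34. *Cldn12*, which is not a member, was about as close to these probes, at 0.31 and 0.28. The list closest to *Cldn12* was the collecting duct, at 0.46 against 0.71. ILMN_2723576 was closest to the thick ascending limb list, at 0.41 against 0.67, or 0.48 with the 2 claudins of that list left out. The podocyte list at 0.54 and the glomerular endothelium list at 0.55 were not much further away than the latter. The gene for claudin-16, a protein of magnesium and calcium reabsorption in the thick ascending limb, differed from ILMN_2723576 by 0.29.

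The level of the proximal tubule list was 8.83 to 9.93 in Cd151+/+ and 9.60 to 10.92 in Cd151-/- mice, which overlapped. Of its 12 tested genes 11 were higher in Cd151-/- isolates, with a median difference of 0.63, and *Slc22a8* and *Kap* had an unadjusted p below 0.05. Its defining gene *Slc34a1*, the phosphate transporter of the proximal tubule, was detected on all 8 arrays, whereas *Slc13a1* and *Slc7a13* were not detected on any. The thick ascending limb list was at 9.28 to 10.10 in Cd151+/+ and 8.98 to 9.59 in Cd151-/- mice, with 5 of its 7 tested genes lower, 2 higher and a median of -0.52. *Umod* and *Slc12a1*, which define this segment, were detected on all 8 arrays. The part of these tubular markers in the *Cldn2* and *Cldn10* differences was not tested.

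**Figure D2:**
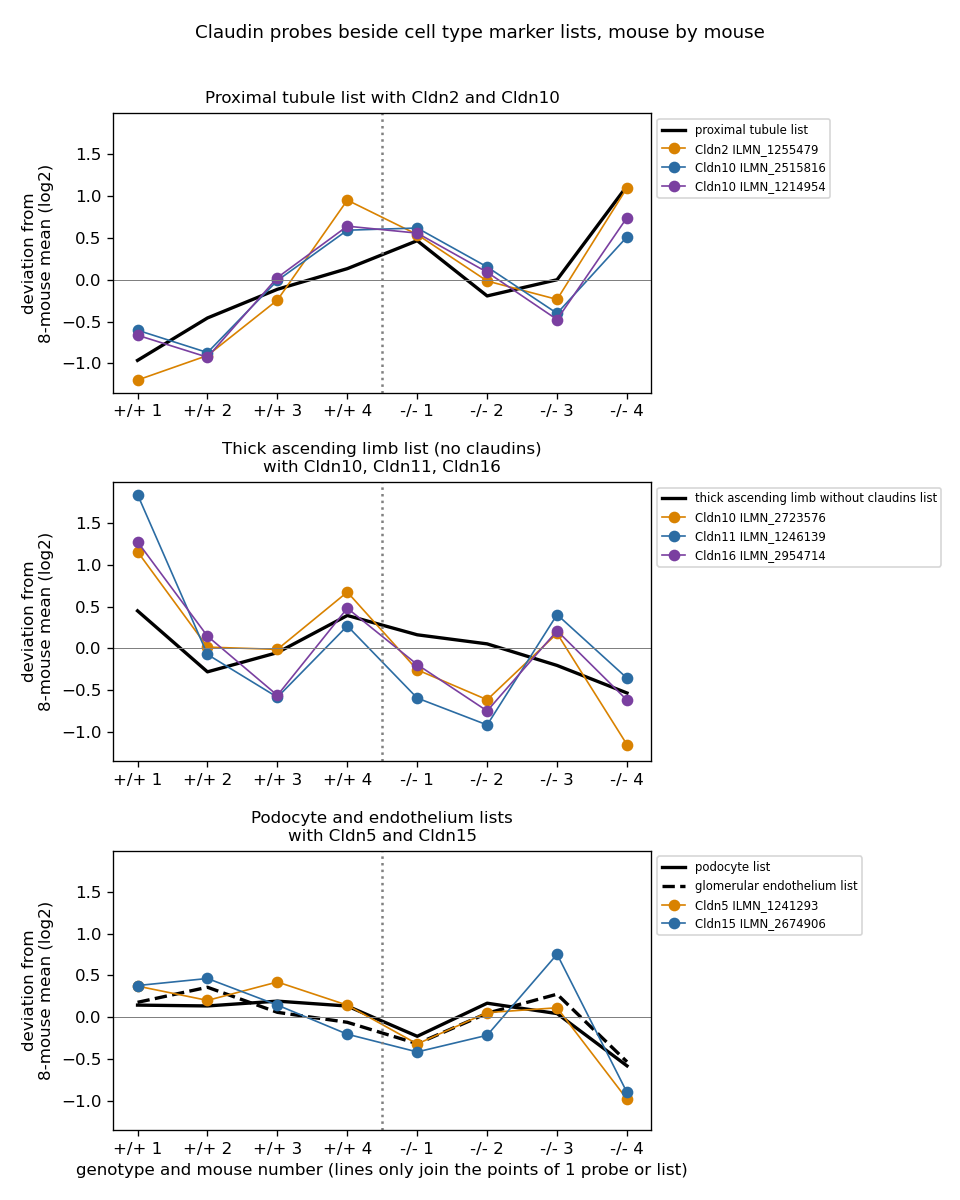
Deviation of each probe or marker list level from its own mean over the 8 mice, in log2 units, with Cd151+/+ mice left and Cd151-/- mice right of the dotted line. *Cldn2* and 2 *Cldn10* probes are shown with the proximal tubule list, *Cldn10* probe ILMN_2723576 with *Cldn11*, *Cldn16* and the thick ascending limb list without its claudins, and *Cldn5* and *Cldn15* with the podocyte and endothelium lists. Of the 8 mice, Cd151-/- mouse 4 is highest for *Cldn2* and the proximal tubule list and lowest for *Cldn5*, *Cldn15* and *Cldn10* probe ILMN_2723576.

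The start regions of these genes were read because the *Cldn10* probes parted. RefSeq (GRCm38.p6) gives *Cldn10* 2 starts, 67079 bases apart, so that 2 promoters serve 1 gene symbol. Which start gives the transcripts that each *Cldn10* probe reads is not known here. A link between the starts and the parting of the probes was not tested. The 250 bases before each start are printed 5′ to 3′ on the gene's strand, with those of *Cldn2*, which varied with ILMN_1214954, and of *Cldn5*, whose genotypes did not overlap. Capitals mark matches on either strand to TATAAA (the TATA box), GGGCGG (the GC box read by Sp1) or CAGGTG (the E-box read by Snail).
*Cldn2*, chrX:139800558-139800807, + strand: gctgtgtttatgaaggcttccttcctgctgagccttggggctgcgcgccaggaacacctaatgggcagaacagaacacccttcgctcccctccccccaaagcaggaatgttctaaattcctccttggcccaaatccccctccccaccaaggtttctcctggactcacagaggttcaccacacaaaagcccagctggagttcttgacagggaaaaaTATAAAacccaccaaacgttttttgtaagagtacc
*Cldn10*, upstream start, chr14:118787621-118787870, + strand: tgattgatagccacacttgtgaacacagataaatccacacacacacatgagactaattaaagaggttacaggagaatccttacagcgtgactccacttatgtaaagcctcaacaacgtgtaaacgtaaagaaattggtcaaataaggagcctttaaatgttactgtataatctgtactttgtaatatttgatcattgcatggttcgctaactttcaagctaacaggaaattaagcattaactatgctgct
*Cldn10*, downstream start, chr14:118854700-118854949, + strand: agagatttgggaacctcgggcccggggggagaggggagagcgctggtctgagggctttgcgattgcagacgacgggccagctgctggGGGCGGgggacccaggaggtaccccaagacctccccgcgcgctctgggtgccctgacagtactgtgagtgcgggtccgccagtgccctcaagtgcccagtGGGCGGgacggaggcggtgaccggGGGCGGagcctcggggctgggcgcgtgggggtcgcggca
*Cldn5*, chr16:18776597-18776846, + strand: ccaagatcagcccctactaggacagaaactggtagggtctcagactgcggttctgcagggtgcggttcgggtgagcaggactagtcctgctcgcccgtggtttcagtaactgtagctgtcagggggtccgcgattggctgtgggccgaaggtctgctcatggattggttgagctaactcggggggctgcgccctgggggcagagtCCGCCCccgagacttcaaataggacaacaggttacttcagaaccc

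The upstream *Cldn10* window had a GC content of 36.0% and no match to these motifs, and the downstream window had a GC content of 72.4% and 3 GGGCGG. The median GC content over 32851 windows of this length was 52.4%. The *Cldn2* window held 1 TATAAA and no other of these motifs, and the *Cldn5* window 1 GGGCGG on the opposite strand. Of all windows 12.4% held TATAAA, 32.7% GGGCGG and 17.2% CAGGTG, and a match describes letters, not binding. CAGGTG was found in the windows of *Cldn4* and the second *Cldn7* start, and in no other member window. A start window was held for 9 of the 10 members, all but *Cldn8*.

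*Cldn11*, whose protein seals the junctions of myelin and of Sertoli cells, was at 8.16, 6.25, 5.74 and 6.59 in Cd151+/+ mice and at 5.73, 5.40, 6.72 and 5.96 in Cd151-/- mice. Cd151+/+ mouse 1 was above all others, and the remaining 7 mice overlapped. The difference was -0.73 (SE 0.48, limma, unadjusted p 0.154, adjusted p 0.918), and leaving out each mouse in turn gave -1.05 to -0.24, the latter without Cd151+/+ mouse 1. Of the 7416 genes detected on all 8 arrays, those that varied most like *Cldn11* were *Esrrb* (RMS difference 0.28), *Cldn16* (0.30) and *Irx1* (0.31), against an RMS deviation of 0.81 for *Cldn11* itself.

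The same measure was applied to the other 2 members with the widest spread over the mice. For *Cldn2* the closest genes were *AI649392* (0.11), *Idh1* (0.14), a cytosolic dehydrogenase, and *Slc27a2* (0.16), a fatty acid transporter. For *Cldn4*, at an RMS deviation of 0.55, they were *Rbpms2* (0.14), *Slc22a5* (0.14), the carnitine transporter, and *Gldc* (0.16), of the glycine cleavage system. For both bright *Cldn10* probes it was applied after their values were seen. ILMN_2515816 was closest to *Vldlr* (0.093), *Pigl* (0.14) and *Acadvl* (0.15), and ILMN_2723576 to *Tmem35* (0.23), *Gp2* (0.24) and *Ap1m2* (0.26). With 8 mice and 7416 genes to choose from, such likeness is a description of these arrays.

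The remaining members encode mostly sealing claudins, which are known from the parietal epithelium and the distal nephron. *Cldn1* encodes the claudin of the epidermal barrier, which also marks the parietal cells of Bowman's capsule. It read 9.76, 9.25, 8.79 and 9.02 in Cd151+/+ mice and 9.25, 9.85, 10.41 and 9.87 in Cd151-/- mice. Of the Cd151-/- mice, 3 were above every Cd151+/+ mouse, and mouse 1 was level with Cd151+/+ mouse 2. The means were 9.20 ± 0.41 (SD, n = 4) and 9.84 ± 0.47 (SD, n = 4), a difference of 0.64 (SE 0.29, 1.56 times higher in Cd151-/-). The limma p was 0.0530 unadjusted and 0.918 adjusted, and the exact two-sided permutation p was 0.0857. The 2 array sets gave 0.63 and 0.65, and with the set as a block the limma p was 0.0133 unadjusted and 0.375 adjusted, where 11.3% of all probes had an unadjusted p below 0.05.

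No marker list described the values of *Cldn1* over the mice. Its closest list was mesangium and smooth muscle, at an RMS difference of 0.47 against 0.50 of its own. Of the parietal epithelium list 5 genes were tested, with 2 higher and 3 lower, at a list level of 6.94 to 7.35 in Cd151+/+ and 6.74 to 7.40 in Cd151-/- mice. The parietal markers *Pax2* and *Prom1* were not detected on any array. *Cldn1* lies next to *Cldn16* in the gene order, and the latter was lower by 0.67 in Cd151-/- isolates where *Cldn1* was higher by 0.64, neither past the test.

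*Cldn3* and *Cldn4*, the receptors of *Clostridium perfringens* enterotoxin, lie next to each other in the genome. *Cldn3* was near the limit of detection, found on 1 of 4 Cd151+/+ and 4 of 4 Cd151-/- arrays. It read 5.10, 4.89, 4.82 and 5.65 in Cd151+/+ and 5.65, 5.30, 5.50 and 5.49 in Cd151-/- mice. The only Cd151+/+ array that detected it was as bright as the brightest Cd151-/- array, and the difference was 0.37 (SE 0.23, limma, unadjusted p 0.142). It was 0.074 when scaled to the 75th percentile, 0.16 without background correction and 0.19 with an offset of 50. Its size thus depended on how dim signals were handled and scaled. With Cd151+/+ mouse 4 left out it was 0.51. *Cldn4* read 5.98, 6.09, 6.04 and 6.85 in Cd151+/+ and 6.55, 6.61, 5.87 and 7.61 in Cd151-/- mice. Cd151+/+ mouse 4 stood apart from the other Cd151+/+ mice, the Cd151-/- mice lay on both sides of them, and the difference was 0.42 (SE 0.35, limma, unadjusted p 0.258). Leaving out Cd151-/- mouse 4 gave 0.11 and leaving out Cd151-/- mouse 3 gave 0.69, and without background correction it was 0.24. The list closest to *Cldn4* over the mice was that of the proximal tubule, at an RMS difference of 0.35 against 0.55 of its own.

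*Cldn7*, a basolateral claudin of the distal nephron, read 6.28, 6.93, 5.88 and 5.68 in Cd151+/+ mice and 5.98, 6.08, 6.27 and 7.25 in Cd151-/- mice, with a difference of 0.20 (SE 0.35, limma, unadjusted p 0.568). Its values followed the array sets: the 4 lower-background arrays lay at 6.27 to 7.25 and the 4 higher-background arrays at 5.68 to 6.08. Without Cd151-/- mouse 4 its difference turned to -0.08. *Cldn8*, the collecting duct partner of *Cldn4* in chloride reabsorption, was read by 2 probes that no array detected and was not tested. Of the collecting duct list 9 of 14 genes were tested, with 5 higher and 4 lower. Its defining marker *Aqp2* was detected on 2 arrays of each genotype, and *Aqp4* and *Avpr2* on none.

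**Figure D3:**
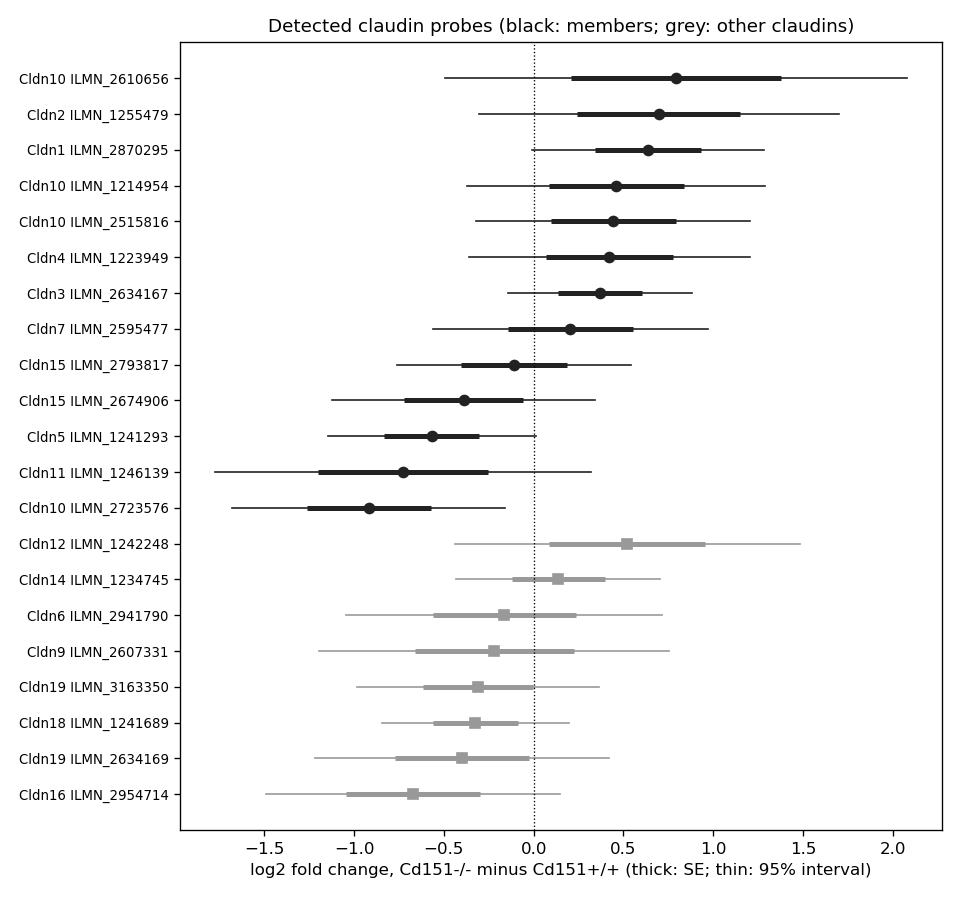
Log2 difference (Cd151-/- minus Cd151+/+) of every claudin probe detected on at least 1 array, with the SE as thick and the 95% interval as thin bars, members in black and other claudins in grey. Among the 13 member probes the interval leaves out 0 only for *Cldn10* probe ILMN_2723576 at -0.92, while the other 3 *Cldn10* probes lie at 0.44 to 0.79.

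The array carried 10 further claudins, of which 7 were detected, with 2 higher, 5 lower and a median difference of -0.22. None had an unadjusted p below 0.05. *Cldn16* and *Cldn19*, whose proteins act together in the thick ascending limb, were lower by 0.67 (SE 0.37) and 0.31 (SE 0.31). *Cldn16* read 11.72, 10.60, 9.89 and 10.93 in Cd151+/+ mice and 10.26, 9.70, 10.66 and 9.83 in Cd151-/- mice, with the highest value again in Cd151+/+ mouse 1. *Cldn12* gave 0.52 (SE 0.44), *Cldn6* -0.16 (SE 0.40) and *Cldn9* -0.22 (SE 0.44). *Cldn14* and *Cldn18* were detected on 1 array each, and *Cldn13*, *Cldn17* and *Cldn23* on none.

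Claudins work with occludin and with the scaffold proteins that tie the strands to the cytoskeleton. Of a list of 33 such tight junction partners, 30 were on the array and 24 were tested, with 9 higher and 15 lower in Cd151-/- isolates. Their median difference was -0.04, 0 passed the test, and 1 had an unadjusted p below 0.05. Over all 11227 genes, 213 were higher and 278 lower at such a p, and 151 did not overlap with Cd151-/- lower, so that 1 of 24 is near the share among all genes. This was *Mpp5*, which encodes the polarity scaffold Pals1. It read 8.02, 7.53, 8.05 and 7.17 in Cd151+/+ and 6.92, 7.11, 6.84 and 5.94 in Cd151-/- mice. The groups did not overlap, and the difference was -0.99 (SE 0.31, limma, unadjusted p 0.00817, adjusted p 0.918). Occludin itself (*Ocln*) differed by -0.05 (SE 0.39), and the scaffold *Tjp1* was detected on 1 array.

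A list of 23 adhesion partners and regulators of claudins had 18 genes on the array and 14 tested, 8 higher and 6 lower, with a median of 0.11. None passed the test, and 2 had an unadjusted p below 0.05, both lower, where 278 of all 11227 genes tested were. One of them was *Snai1*, which encodes the repressor Snail. It read 8.10, 8.14, 7.91 and 7.66 in Cd151+/+ and 7.47, 7.84, 7.07 and 6.31 in Cd151-/- mice, a difference of -0.78 (SE 0.31, limma, unadjusted p 0.0300, adjusted p 0.918). The Cd151-/- mice lay lower, and only mouse 2 reached the Cd151+/+ range.

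**Figure D4:**
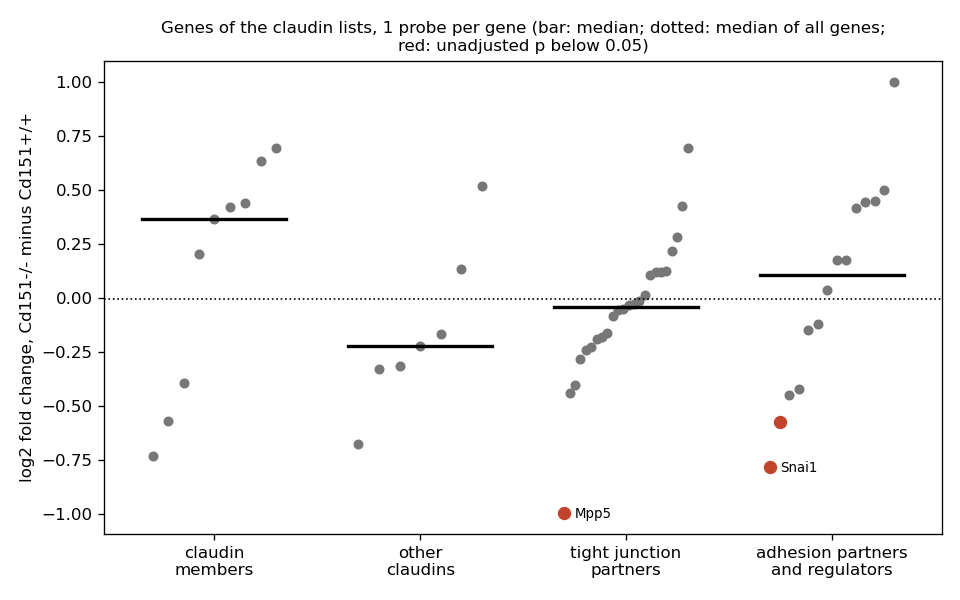
Log2 difference (Cd151-/- minus Cd151+/+) of each tested gene of 4 lists, 1 probe per gene, with the list median as a bar and the median of all genes (-0.00193) as a dotted line. The medians are 0.37, -0.22, -0.04 and 0.11 from left to right, and the genes with an unadjusted p below 0.05, shown in red, are all lower in Cd151-/- isolates, *Mpp5* and *Snai1* among them.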

How the data were processed

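Per the labels, RNA of glomerular isolates was biotin-labelled and hybridised to 1-colour BeadChips, read with the Illumina reader and handled in GenomeStudio. The authors deposited for each probe and array an intensity, the mean bead signal without background subtraction or normalisation, and a detection p-value against the array's negative controls. The values of the study had further been normalised by cubic spline.

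Here the background was inferred from the deposited detection p-values and signals were corrected by normexp, given an offset of 16, quantile-normalised and transformed to log2 in limma 3.58.1 (R 4.3.3), then fitted with lmFit and eBayes. A probe entered the test if any of the 8 arrays detected it (detection p-value at most 0.05), which left 14967 probes for the Benjamini-Hochberg adjustment. Exact permutation tests used all 70 relabelings and were two-sided. SAM was run as an alternative at an FDR below 0.2. Of several probes for a gene, the probe that was brightest on average stands for the gene, and other detected probes are given. Besides the members, the text names detected other claudins, related genes with an unadjusted p below 0.05 or groups that did not overlap, and the 3 genes most like each of the 3 members that varied most. Procedures were tested on simulated data. The members, the lists and the 2 array sets were chosen with earlier results of these data known. Of the listed genes 18 were matched through a synonym and 13 were not matched. Marker list levels are means over the list's detected genes. Alternatives covered background correction, cubic spline (written anew, through 15 quantiles), the 75th percentile as the scale, a larger offset (50), the detection filter, an intensity filter of 50, the mouse number or the array set as a block, a trended robust variance, array weights and each mouse left out. The number of arrays and the signal over background, 3.00 to 4.46 times at the median detected probe, limit the precision. The labels call the mice biological replicates. Promoter windows and neighbouring genes are from RefSeq tables of GRCm38.p6. Protein sequences were not used here, and the results of 2 single genes are not reported here. Slides are not named in the table and could not be fitted.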

Additional observations from a re-analysis of the deposited data

Results flagged for a closer look

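The *Cldn4* signal of Cd151+/+ mouse 4 was 6.85, while the other 3 Cd151+/+ mice lay between 5.98 and 6.09. Its gap to the nearest mouse was 0.867 of the whole range of the group, above Dixon's critical value for 4 samples at the 95% level. It was the only value set apart in this way among 26 groups of 4 checked, where chance sets apart about 5% of groups. The array was of the higher-background set, and the proximal tubule list had its highest Cd151+/+ level, 9.93, in the same mouse. The part of either in this value was not tested.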

How the results depend on the processing

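In every alternative, SAM included, 0 claudin probes passed the adjusted test. Over all probes the count past adjustment was 5, the 3 *Cd151* probes among them. This count was 8 with the array set as a block and 4 to 6 with each mouse left out. SAM called 91, at its wider limit of an FDR below 0.2. The count of the 13 claudin probes at an unadjusted p below 0.05 was 1, where 4.3% of all probes had such a p. It was 3 without background correction (4.22%), with an offset of 50 (4.37%), with the array set as a block (11.3%) and with a trended robust variance (4.06%), and 2 with cubic spline normalisation (4.33%) and with no detection filter (4.26%). With array weights it was 8, where 32.2% of all probes had such a p and the lowest adjusted p among the claudins was 0.0945. It was 0 to 3 with each mouse left out, with 0 when Cd151-/- mouse 4 was left out (3.22% of all probes), 2 for Cd151-/- mouse 1 (2.3%) and 3 for Cd151+/+ mouse 4 (6.63%), Cd151-/- mouse 2 (5.39%) or Cd151-/- mouse 3 (9.42%). *Cldn10* probe ILMN_2723576 kept its direction in 19 of 19 alternatives and an unadjusted p below 0.05 in 16, and *Cldn5* kept its direction in all 19, with such a p in 9 and values of -0.70 to -0.33. *Cldn1* kept its direction in all 19, with such a p in 6, and was 0.23 with array weights, where the brightest *Cldn10* probe was at 0.88. Directions turned for *Cldn7* with array weights (-0.26) and with Cd151-/- mouse 4 left out (-0.080, in a range of -0.080 to 0.46 over the mice left out in turn), for *Cldn15* probe ILMN_2793817 with array weights (0.14) and with Cd151+/+ mouse 3 (0.059) or Cd151-/- mouse 4 (0.15) left out, in a range of -0.23 to 0.15, and for *Cldn10* when read by ILMN_2723576 (-0.92). The causes were not tested. The median over the claudins was 0.11 without Cd151-/- mouse 4, 0.16 without background correction, 0.17 when scaled to the 75th percentile, 0.19 with an offset of 50 and 0.23 with array weights.

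Same-numbered mice of the 2 genotypes did not deviate together (r from -0.58 to -0.01). Each such pair lay across the 2 array sets, where differently numbered pairs also had a negative r (-0.65 to -0.27). This check therefore cannot show whether the numbers paired the samples. With the mouse number as a replicate block, 1 claudin probe had an unadjusted p below 0.05, 0 passed the adjustment and the lowest adjusted p was 0.998, while 420 of all probes had an unadjusted p below 0.05 against 643 without the block.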
